A study of Arabidopsis thaliana with 12 samples.

Results

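Seedlings of Arabidopsis thaliana carrying gun1-1 were compared with wild-type Col-0, both grown on norflurazon, across the whole transcriptome. These are 6 of the 12 samples of the series, 3 libraries of each genotype. Per the labels, whole seedlings of both genotypes, in the Col-0 background, were sampled at 5 days on medium with 5 µM norflurazon in continuous light of 100 µE, so the wild type carries the bleaching treatment too and no untreated plants enter the comparison. The design text speaks of leaf RNA instead, and markers of root hairs and endodermis were measured in both groups. Members were all genes of the authors' deposited table for this pair, with 1 transcript kept per gene code, the one of greatest mean FPKM over both groups (fragment counts divided by transcript length and library size). The table lists 64480 transcripts of 38093 genes, of which 18808 genes were tested by the authors and 19285 were not. It gives 1 FPKM value per group, so the values of single libraries, their spread and their depth are unknown. All FPKM values, log2 fold changes (gun1-1 over Col-0) and calls below come from the authors' deposited table. A gene is called higher or lower, or said to have risen or fallen, where the authors' q-value was under 0.05. The SE given with a log2 fold change was derived from the authors' statistic and p-value. The authors' p-values correspond to statistics 1.73 times those listed, so these SEs are wide and some called genes lie within 2 of them from 0. Of the tested genes, 7539 (40.1%) share their span in the table with other genes, among them CA1, FER1, FER2, FER4, GOX1, GLDP1, MGD1, FAD8, APL1, PARP2, XTH9 and AT1G30170, and reads of near-identical copies (light-harvesting proteins, storage albumins, glutathione S-transferases) could be split either way. The other libraries, 3 of gun4-1 and 3 of gun5-1 under the same treatment, enter only where the mutants are set side by side.

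Norflurazon blocks phytoene desaturase and so the synthesis of carotenoids, which leaves plastids open to bleaching in the light. Wild-type seedlings with bleached plastids shut down nuclear genes of photosynthesis, a plastid-to-nucleus message called retrograde signalling. The gun mutants (genomes uncoupled) were found because they keep such genes expressed under this treatment. GUN1 is a plastid pentatricopeptide repeat protein with an SMR domain, whereas GUN4 and GUN5 act at magnesium chelatase, the first step of the chlorophyll branch. GUN1 itself (AT2G31400; chromosome 2, 13386954 to 13390854 by the deposited coordinates, of a build not stated there) stood at 149 FPKM in the wild type and 137 FPKM in gun1-1. Its log2 fold change was -0.12 (SE 0.16) and did not pass. The allele came from a chemical mutagenesis screen, so the transcript level does not check the label.

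More genes were higher than lower in gun1-1. Of 18808 tested genes, 3531 were called higher (18.8% of tested genes) and 2799 lower (14.9%), 6330 in all (33.7%). The median log2 fold change was 0.71 among genes called higher and -0.63 among those called lower, against -0.02 over all tested genes. At least 2-fold changes were called for 1097 genes higher (5.83% of tested genes) and 659 lower (3.5%). At 4-fold the counts were 220 and 143, at 8-fold 70 and 47, and at 16-fold 28 higher and 33 lower. The steepest rises were in photosynthesis genes. CA1 (AT3G01500), a plastid carbonic anhydrase, rose from 6.45 to 1339 FPKM, or by 7.70 (SE 0.29) in log2 terms. The light-harvesting gene LHCB1.4 (AT2G34430, listed as LHB1B1) rose from 0.780 to 90.9 FPKM. All 21 antenna genes tested rose, with a median log2 fold change of 2.95. CYP706A6 (AT4G12320), a cytochrome P450, was next at 6.13 (SE 0.62), from 0.275 to 19.2 FPKM. The steepest falls were in other classes of gene. FTM1 (AT1G43800), a stearoyl-acyl-carrier-protein desaturase family member, fell from 22.9 to 0.325 FPKM, AT1G30170, a protein with the DUF295 domain, from 47.3 to 0.819 FPKM, and chr31 (AT1G05490), a chromatin remodeller, from 5.94 to 0.125 FPKM. TIM17-1 (AT1G20350), a subunit of the mitochondrial inner membrane translocase, fell from 17.3 to 0.405 FPKM. Of the called genes, 20 were listed at 0 in a group, 18 of them in gun1-1 and 2 in Col-0; a 0 in a table without counts can be a failed estimate, and no fold is given for them.

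**Figure D1:**
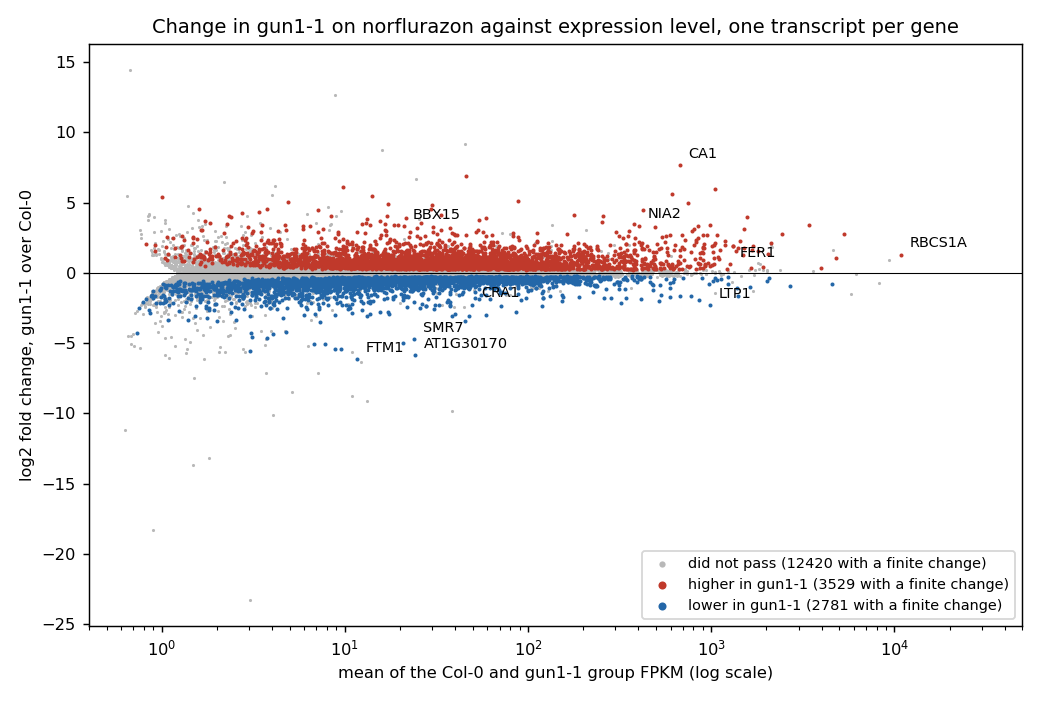
Log2 fold change of each tested gene with a finite value (gun1-1 over Col-0) against the mean group FPKM on a log scale. Red points are genes called higher, blue points genes called lower and grey points genes that did not pass; CA1 lies at 7.70 and FTM1 at -6.14, and the grey points far below FTM1 have group values close to 0.

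Genes of photorespiration rose as a group. This pathway recovers carbon from the product of the oxygenase reaction of Rubisco and runs through plastids, peroxisomes and mitochondria. All 19 tested genes were called higher, beside 18.8% of all tested genes, with a median log2 fold change of 1.64. Among the peroxisomal enzymes, HPR (AT1G68010), hydroxypyruvate reductase, went from 240 to 1203 FPKM. GGT1 (AT1G23310), glutamate:glyoxylate aminotransferase, went from 551 to 2085 FPKM, and GOX1 (AT3G14420), glycolate oxidase, from 399 to 1395 FPKM. In mitochondria, SHM1 (AT4G37930), serine hydroxymethyltransferase, went from 414 to 1391 FPKM and GLDP1 (AT4G33010), the P protein of glycine decarboxylase, from 241 to 827 FPKM. GS2 (AT5G35630), the plastid glutamine synthetase that refixes photorespiratory ammonium, rose most, from 61.6 to 694 FPKM and by 3.50 (SE 0.31). The smallest rise was that of the dicarboxylate transporter DIT2.1 (AT5G64290) at 0.37 (SE 0.17). The plastid transporter DiT1 (AT5G12860) rose by 1.97 (SE 0.25).

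Nitrate assimilation and carbon storage moved less evenly. Over all tested genes 18.8% were called higher and 14.9% lower. Of 8 tested genes of nitrate and ammonium assimilation 4 rose (50%) and 0 fell (median 0.51). The nitrate reductases NIA2 (AT1G37130) and NIA1 (AT1G77760) stood at 71.7 and 151 FPKM in Col-0 and at 736 and 270 FPKM in gun1-1, so their order was reversed. NIR1 (AT2G15620), nitrite reductase, rose by 1.42 (SE 0.17), and ASN2 (AT5G65010), an asparagine synthetase, by 1.84 (SE 0.17). ASN1 (AT3G47340), at 217 and 246 FPKM, and the glutamate dehydrogenases GDH1 (AT5G18170) and GDH2 (AT5G07440) did not pass. Of 21 starch genes 12 rose (57.1%) and 3 fell (median 0.51), and the 14.3% that fell lay near the share of all tested genes. The synthesis enzymes ADG1 (AT5G48300) and APL1 (AT5G19220), subunits of ADP-glucose pyrophosphorylase, rose from 39.4 to 186 FPKM and from 81.3 to 173 FPKM. GBSS1 (AT1G32900), which makes amylose, went from 1.48 to 6.58 FPKM. Among the 3 genes that fell, DPE1 (AT5G64860) at -0.75 (SE 0.29) and DPE2 (AT2G40840) at -0.70 (SE 0.27) encode disproportionating enzymes. The other, ISA3 (AT4G09020) at -0.58 (SE 0.25), encodes a debranching enzyme. Of 10 genes of sucrose synthesis and sugar transport, 5 rose (50%) and 1 fell (10%), with a median of 0.20. FBP (AT1G43670), the cytosolic fructose bisphosphatase of sucrose synthesis, went from 87.6 to 539 FPKM, and the triose phosphate translocator APE2 (AT5G46110) from 119 to 275 FPKM. The sugar transporters SUC2, STP1 and SWEET12 did not pass. Of 8 sulfate assimilation genes only SIR (AT5G04590), sulfite reductase, at 0.88 (SE 0.17) and APS1 (AT3G22890), ATP sulfurylase, at 0.34 (SE 0.17) rose (median 0.14). That share, 25%, lay near the 18.8% of all tested genes.

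Nuclear genes for other plastid components were mostly higher. The counts below stand beside 18.8% of all tested genes called higher and 14.9% called lower. All 37 tested nuclear genes for plastid ribosomal proteins rose, by a median of 0.67, from AT1G29070, a ribosomal protein of the L34 family, at 1.69 (SE 0.17) down to 0.36. Of 12 fibrillin genes, whose proteins coat plastoglobules (lipid droplets of plastids), 10 rose and 0 fell (median 0.81). FIB (AT4G04020), fibrillin itself, went from 12.4 to 79.8 FPKM, or by 2.69 (SE 0.20). AT5G19940, the most abundant member, went from 136 to 313 FPKM. Of 18 genes for FKBP immunophilins, a family of peptidyl-prolyl isomerases with many members in the thylakoid lumen, 11 rose and 2 fell (median 0.76). AT5G13410 rose by 2.67 (SE 0.56), while PAS1 (AT3G54010), named for the pasticcino phenotype, fell by 0.36 (SE 0.20). Plastid lipid genes rose in 7 of 8 cases (median 0.75), among them the desaturase gene FAD8 (AT5G05580) from 44.9 to 109 FPKM and MGD1 (AT4G31780), which makes the galactolipid MGDG, from 29.1 to 57.6 FPKM. SQD1 (AT4G33030), of sulfolipid synthesis, did not pass. Fatty acid synthesis was less uniform, with 12 of 22 genes higher and 1 lower (median 0.37). CAC1 (AT5G16390), a carboxyl carrier subunit of acetyl-CoA carboxylase, rose by 1.38 (SE 0.18), and FaTA (AT3G25110), a thioesterase, fell by 0.93 (SE 0.38). The fibrillin and FKBP lists were chosen after the values were seen.

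**Figure D2:**
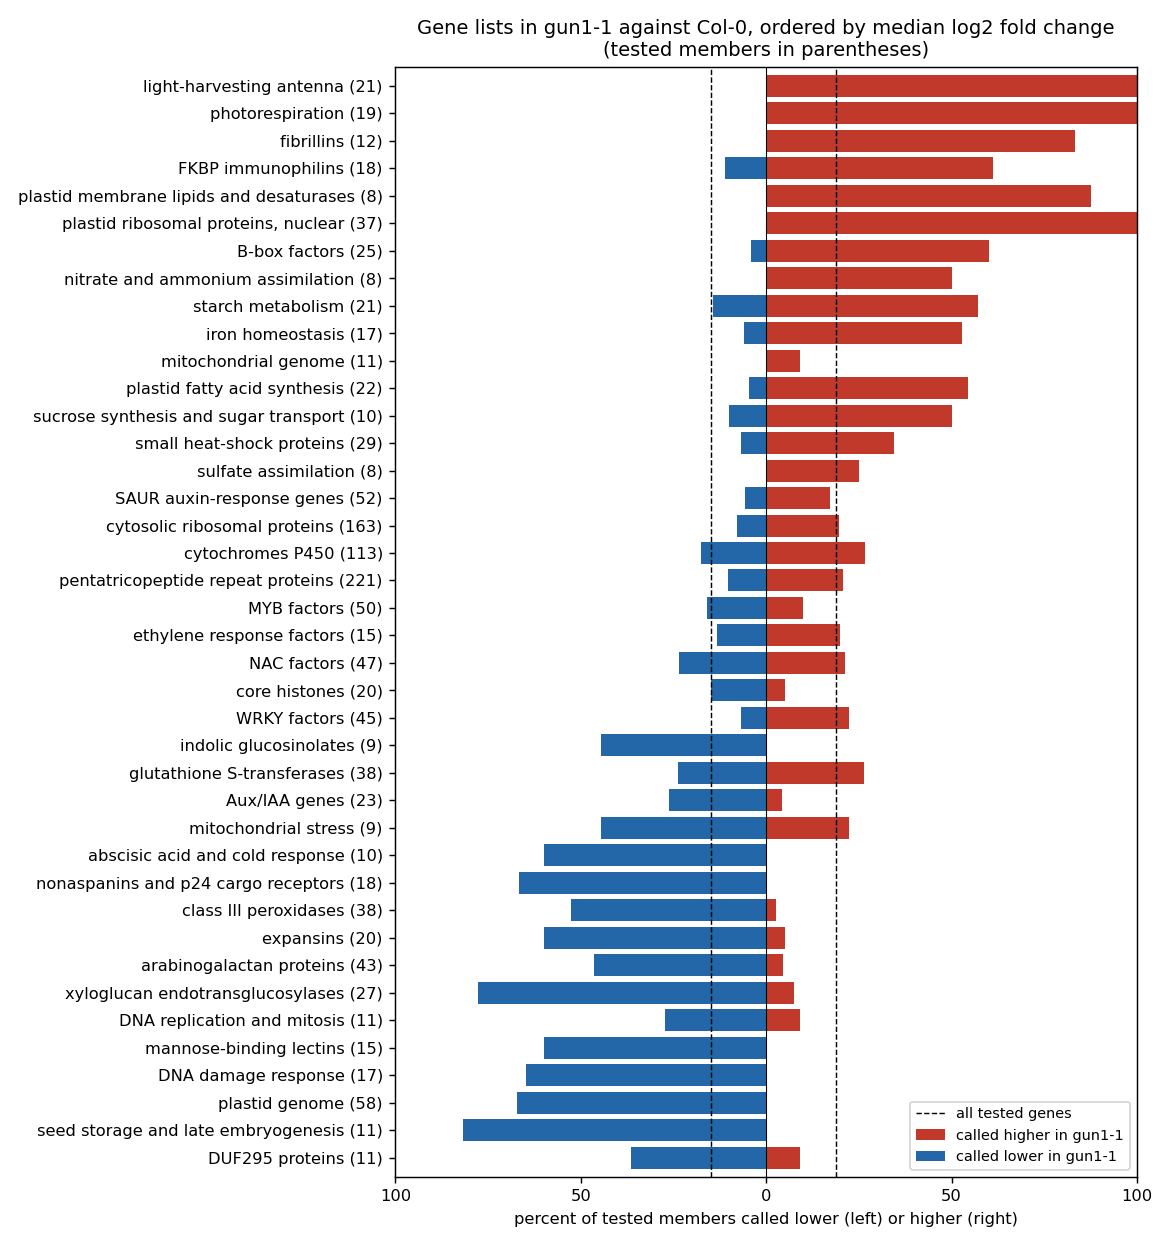
Percent of tested members called higher (red, right) or lower (blue, left) in gun1-1 for each gene list with at least 8 tested members, ordered by median log2 fold change. Dashed lines mark the shares over all tested genes, 18.8% higher and 14.9% lower; photorespiration reaches 100% higher, and no member of the seed, plastid genome or DNA damage lists was called higher.

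Nuclear sigma factor genes were called higher, while the plastid-encoded genes that were called were all lower. Sigma factors are nuclear-encoded subunits that guide the plastid-encoded RNA polymerase to promoters. All 6 were called higher (median 1.00): SIG1 (AT1G64860, listed as SIGA) went from 34.4 to 117 FPKM, SIG6 (AT2G36990, listed as SIGF) from 61.8 to 132 FPKM and SIG4 (AT5G13730) from 17.6 to 41.8 FPKM. SIG2 (AT1G08540) rose by 0.91 (SE 0.24), SIG5 (AT5G24120, listed as SIGE) by 0.81 (SE 0.17) and SIG3 (AT3G53920, listed as SIGC) by 0.66 (SE 0.22). Of 58 tested plastid-encoded genes, 0 were higher and 39 were lower (67.2%, beside 14.9% of all tested genes), with a median of -1.67. The fall was seen in each functional group of the 50 genes with a name. The other 8, left out of the groups below because their spans could not be matched to a single gene, were all lower, by log2 changes from -2.18 to -1.53. The 4 polymerase subunit genes all fell (median -1.82), as did 3 of 3 cytochrome b6f genes (median -1.01), 6 of 9 photosystem genes (median -1.78), 3 of 4 ATP synthase genes (median -1.47) and 4 of 7 NDH genes (median -1.53). rpoB (ATCG00190) went from 6.12 to 1.55 FPKM, and rbcL, the large subunit of Rubisco, from 13.3 to 4.12 FPKM. Of the named ribosomal protein genes 6 of 14 fell (median -1.37), and the most abundant gene to fall with a finite value was rpl16 (ATCG00790), from 2128 to 670 FPKM, at -1.67 (SE 0.17). Very short genes were listed at 0 in gun1-1 in 5 cases, of which psaJ (ATCG00630, 2373 FPKM in Col-0) and psbK (ATCG00070, 129 FPKM in Col-0) were called. The labels describe oligo(dT) selection, and plastid RNA is mostly without a poly(A) tail, so these values come from the part of it that was carried along; its part in the result was not tested. The mitochondrial genome gave 1 of 11 genes higher and 0 lower (median 0.38).

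Transcription factors of the B-box family, several of which act in light signalling, rose in 15 of 25 cases and fell in 1 (median 0.54). BBX15 (AT1G25440) went from 3.80 to 38.3 FPKM, BBX14 (AT1G68520) from 16.8 to 69.4 FPKM and BBX27 (AT1G68190) from 6.26 to 28.7 FPKM. BBX24 (AT1G06040, listed as STO), a negative regulator of light responses, went from 177 to 344 FPKM. COL1 (AT5G15850) and COL2 (AT3G02380), relatives of CONSTANS, rose by 1.40 (SE 0.22) and 1.46 (SE 0.20). BBX13 (AT1G28050) fell by 0.79 (SE 0.25), and BBX21 (AT1G75540), BBX22 (AT1G78600, listed as LZF1) and BBX20 (AT4G39070, listed as BZS1) did not pass. Other families of regulators had smaller shares of members called higher, 10% to 22.2%, beside 60% of the B-box factors and 18.8% of all tested genes. Of 45 WRKY factors 10 rose and 3 fell (median -0.11), of 47 NAC factors 10 and 11 (median -0.07), of 50 MYB factors 5 and 8 (median -0.01) and of 15 ethylene response factors 3 and 2 (median -0.05). Among those that moved far, ANAC087 (AT5G18270), a factor of programmed cell death in the root cap, fell from 43.4 to 7.77 FPKM, and WRKY25 (AT2G30250), a defence and heat response factor, from 43.8 to 17.6 FPKM. NAP (AT1G69490), a senescence factor, rose from 10.8 to 25.4 FPKM and MYB13 (AT1G06180) from 22.1 to 59.8 FPKM.

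**Figure D3:**
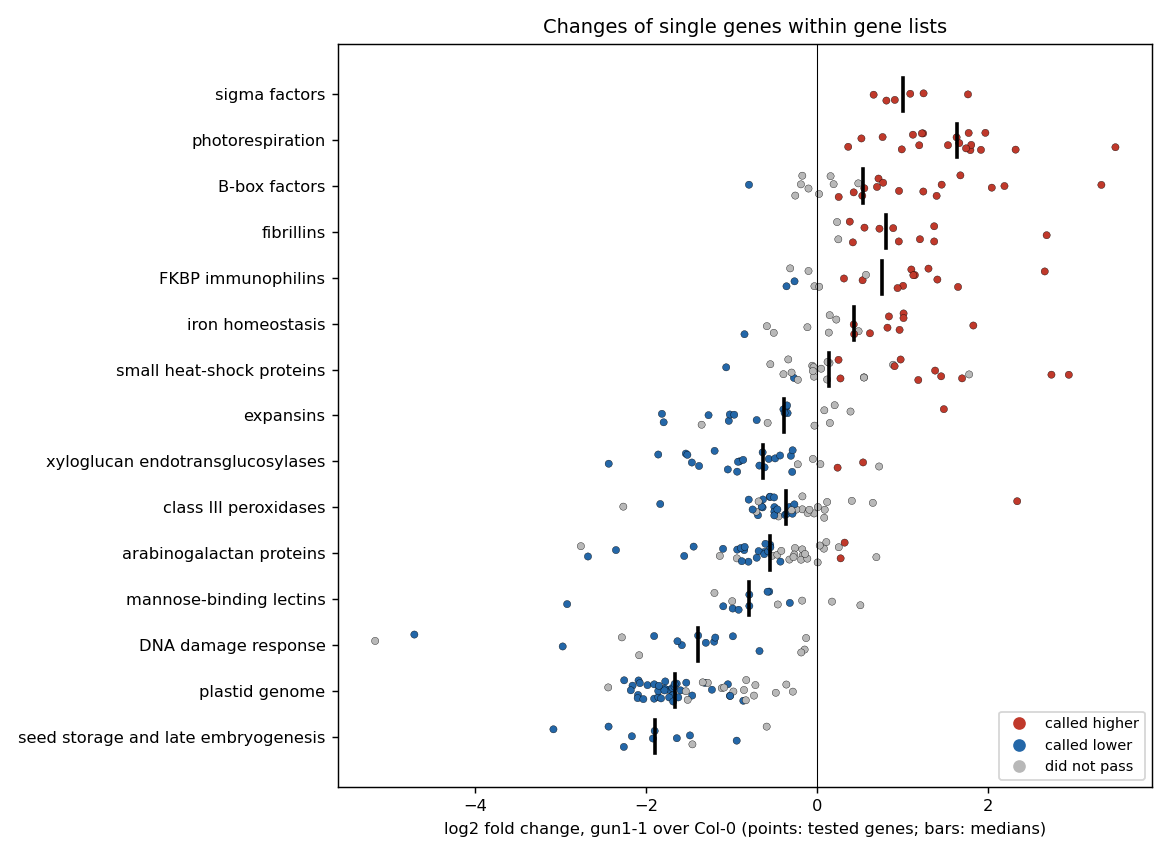
Log2 fold change (gun1-1 over Col-0) of each tested gene with a finite value in 15 gene lists. Red points were called higher, blue points lower, grey points did not pass, and black bars mark list medians, from 1.64 for photorespiration to -1.90 for seed storage and late embryogenesis.

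Iron storage genes were higher in gun1-1. Ferritins are plastid proteins that store iron, and their genes are induced by iron and by oxidative stress. All 4 rose: FER1 (AT5G01600) from 999 to 1537 FPKM, FER3 (AT3G56090) from 133 to 237 FPKM, FER4 (AT2G40300) from 66.7 to 131 FPKM and FER2 (AT3G11050), the seed ferritin, from 5.16 to 18.4 FPKM. In log2 terms these were 0.62 (SE 0.19), 0.83 (SE 0.17), 0.97 (SE 0.27) and 1.83 (SE 0.37). Of the 17 tested genes of iron homeostasis, 9 rose and 1 fell (median 0.44). These shares were 52.9% and 5.88%, beside 18.8% and 14.9% of all tested genes. FRO6 (AT5G49730) and FRO7 (AT5G49740), ferric reductases of shoots, rose by 1.02 (SE 0.20) and by 1.01 (SE 0.25). YSL1 (AT4G24120), a metal-nicotianamine transporter, went from 16.4 to 29.4 FPKM, while NAS4 (AT1G56430), a nicotianamine synthase, fell by 0.85 (SE 0.50). FIT (AT2G28160, listed as FRU), the main regulator of iron uptake in roots, and PYE (AT3G47640), a regulator of iron deficiency responses, did not pass.

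The differences in iron genes were tested against the other mutants. The test divides the difference of the log2 fold changes by its derived SE, takes the normal p of both tails, and adjusts it by Benjamini-Hochberg over the genes that both tables tested. A difference is said to pass where the adjusted p was under 0.05; since the tables hold no values of single libraries, no exact test over samples could be run, and the size and SE of each difference are given in place of its p. Those tables share the Col-0 libraries and were scaled separately by the authors. Over all genes, 705 of 18474 were more positive (3.82%) and 439 more negative (2.38%) in gun1-1 than in gun4-1. Against gun5-1, 157 of 18291 genes were more positive (0.858%) and 156 more negative (0.853%). Of the 17 iron genes, 6 were more positive than in gun4-1 and 5 more positive than in gun5-1, with 0 more negative. FER1 gave -1.37 in gun4-1 and -1.36 in gun5-1, differences of 1.99 (SE 0.28) and 1.99 (SE 0.28), which both passed. FER3 gave -0.84 and -0.68, differences of 1.66 (SE 0.24) and 1.51 (SE 0.24), which both passed. YSL1 gave -0.10 and -0.37, and both differences passed. FER4, at -0.11 and -0.15, passed in neither test, with differences of 1.08 (SE 0.40) and 1.11 (SE 0.40).

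Genes annotated as small heat-shock proteins or HSP20-like chaperones rose in 10 of 29 tested cases and fell in 2 (median 0.15). These shares were 34.5% and 6.9%, beside 18.8% and 14.9% of all tested genes. Small heat-shock proteins are chaperones that hold unfolded proteins. HSP17.6A (AT5G12030) went from 8.22 to 55.2 FPKM, or by 2.75 (SE 0.30). Its change in gun5-1 was -1.80, and the difference of 4.55 (SE 0.66) passed. In gun4-1 it gave -6.02 (SE 5.17), a difference of 8.76 (SE 5.18) that did not pass. AT2G19310 went from 18.8 to 49.0 FPKM, and its changes of -0.28 in gun4-1 and -0.39 in gun5-1 both passed the difference test. AT5G51440, another HSP20-like chaperone, rose from 16.3 to 30.6 FPKM, against -1.54 and -1.23 in gun4-1 and gun5-1, differences of 2.45 (SE 0.40) and 2.14 (SE 0.39), which both passed. AT5G48570, a cytosolic FKBP of the heat response, rose by 1.31 (SE 0.24), against -0.73 and -1.17, and both differences passed. The most abundant member, AT4G02450, went from 317 to 378 FPKM, and RTM2 (AT5G04890) fell by 1.06 (SE 0.38). Both carry only the HSP20-like annotation, which does not show that they act as small heat-shock proteins.

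Genes known to answer mitochondrial stress fell more often than they rose. Of 9 tested, 2 rose (22.2%, near the 18.8% of all tested genes) and 4 fell (44.4%, beside 14.9%). The median was -0.30. NDA1 (AT1G07180), an alternative NAD(P)H dehydrogenase of the inner membrane, went from 47.8 to 122 FPKM. The other gene that rose was AT5G51440, given above. BCS1 (AT3G50930) fell most, from 1.53 to 0.502 FPKM, at -1.61 (SE 0.58). UPOX (AT2G21640, listed by its code), a marker of oxidative stress, fell from 306 to 158 FPKM, and the alternative dehydrogenase NDB2 (AT4G05020) from 8.57 to 5.14 FPKM. AOX1A (AT3G22370), the alternative oxidase, stood at 71.8 and 74.0 FPKM and did not pass. Its regulator NAC13 (AT1G32870) fell by 0.30 (SE 0.20) and NAC017 (AT1G34190) did not pass. The window of 250 bases before the RefSeq gene start was searched, on both strands, for CTTG followed, after a gap of 5 bases, by CAAG or CACG, the motif of genes induced by mitochondrial dysfunction. Of 17778 tested nuclear protein-coding genes, 0.951% held it. It was found in 11 of 128 genes called lower at least 4-fold (8.59%), in 3 of 212 called higher at least 4-fold (1.42%) and in 42 of 2702 called lower in all (1.55%). The 11 genes were picked out after their values were seen. The 4 with the highest Col-0 FPKM are shown because they are the strongly lowered genes that share these letters, with the motif in capitals (TAIR10.1, RefSeq genome; AT2G18193 at chr2:7919346-7919595, minus strand; AT1G17960 at chr1:6183807-6184056, minus strand; SRO3 at chr1:26550637-26550886, minus strand; ADH1 at chr1:28975005-28975254, plus strand).
AT2G18193: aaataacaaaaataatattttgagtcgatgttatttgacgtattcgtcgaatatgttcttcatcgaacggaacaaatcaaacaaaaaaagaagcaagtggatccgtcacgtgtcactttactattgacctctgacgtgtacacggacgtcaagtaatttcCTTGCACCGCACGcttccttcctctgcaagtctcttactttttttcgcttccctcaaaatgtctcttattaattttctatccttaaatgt
AT1G17960: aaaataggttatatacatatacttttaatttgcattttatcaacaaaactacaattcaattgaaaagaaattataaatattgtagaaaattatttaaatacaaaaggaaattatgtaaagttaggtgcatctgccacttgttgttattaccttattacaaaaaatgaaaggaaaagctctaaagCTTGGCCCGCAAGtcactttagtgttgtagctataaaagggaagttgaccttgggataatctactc
SRO3: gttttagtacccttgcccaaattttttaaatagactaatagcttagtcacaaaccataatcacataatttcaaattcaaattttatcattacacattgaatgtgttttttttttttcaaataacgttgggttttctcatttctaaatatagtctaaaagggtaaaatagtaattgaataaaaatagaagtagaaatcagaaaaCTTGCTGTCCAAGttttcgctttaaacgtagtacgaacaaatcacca
ADH1: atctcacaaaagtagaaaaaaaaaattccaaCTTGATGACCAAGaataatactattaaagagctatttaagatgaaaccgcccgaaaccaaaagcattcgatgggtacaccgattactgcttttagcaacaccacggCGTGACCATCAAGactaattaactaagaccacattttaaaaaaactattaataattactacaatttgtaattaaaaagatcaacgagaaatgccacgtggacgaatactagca
AT2G18193, an AAA-type ATPase, went from 150 to 22.2 FPKM, at -2.76 (SE 0.18). AT1G17960, annotated as a threonyl-tRNA synthetase, went from 83.2 to 7.90 FPKM, at -3.40 (SE 0.39). SRO3 (AT1G70440), of the RCD1 family of stress regulators, went from 16.7 to 3.48 FPKM, and ADH1 (AT1G77120), alcohol dehydrogenase, from 15.7 to 1.99 FPKM. ADH1 holds the motif at -219 and at -113 from the gene start, the second time on the other strand. The remaining genes were NAC010, AT2G28815, AT3G21080, AT3G58150, AT4G38780 and the DUF295 genes AT5G53230 and AT5G53240, both listed at 0 in gun1-1. AT2G18193 fell less in gun4-1, where it fell by 0.87, a difference of -1.89 (SE 0.25) that passed, and gave -2.65 in gun5-1. The match is a description of letters only.

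Genes of the DNA damage response were low in gun1-1. In plants this response runs through the transcription factor SOG1, which turns on cell cycle inhibitors and repair genes. Of 17 genes, 0 rose and 11 fell (64.7%, beside 14.9% of all tested genes), with a median of -1.39; the list was chosen after the values were seen. Of the cell cycle inhibitors, SMR7 (AT3G27630, listed by its code) went from 46.2 to 1.76 FPKM and fell by 4.71 (SE 0.64) in log2 terms. SMR5 (AT1G07500) went from 56.5 to 11.6 FPKM but did not pass (-2.28, SE 2.70); its span in the table holds other genes. CYCB1;1 (AT4G37490), a mitotic cyclin that also accumulates on DNA damage, fell from 10.6 to 1.35 FPKM. Of the repair genes, BRCA1 (AT4G21070) fell from 4.82 to 1.29 FPKM, PARP2 (AT4G02390) from 18.4 to 6.16 FPKM and TK1a (AT3G07800), a thymidine kinase, from 18.6 to 8.08 FPKM. XRI1 (AT5G48720), PARP1 (AT2G31320) and ATRAD17 (AT5G66130) fell too, by 1.19 (SE 0.58), 0.67 (SE 0.23) and 1.63 (SE 0.72). GMI1 (AT5G24280) at -5.17 (SE 2.52) did not pass, nor did SOG1 (AT1G25580) itself, at 6.87 and 6.22 FPKM. Against gun4-1 4 of the 17 were more negative and 0 more positive: SMR7, which gave -0.58 in gun4-1, CYCB1;1 at -0.08, BRCA1 at 0.32 and TK1a at 0.37. The differences were -4.13 (SE 0.69) for SMR7 and -2.90 (SE 0.51) for CYCB1;1. In gun5-1, 8 of the 17 fell and 0 rose (median -1.26), beside 13.2% of all genes tested there that fell. SMR7 gave -2.86 and CYCB1;1 gave -1.78 in gun5-1, and both were called lower there. Against gun5-1 the difference passed in 1 case, NAC103 (AT5G64060), a target of SOG1, which fell by 0.98 (SE 0.21) in gun1-1 and gave -3.01 in gun5-1, a difference of 2.03 (SE 0.38).

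SOG1 is known to bind CTT followed, after a gap of 7 bases, by AAG, letters that read the same on both strands and that every CTTG and CAAG pair of the mitochondrial dysfunction motif also satisfies. The 250-base window held it in 5 of the 17 genes (29.4%), beside 8.79% of all 17778 genes searched. The windows of the 2 called members that hold it are shown with the motif in capitals (TAIR10.1, RefSeq genome; SMR7 at chr3:10231568-10231817, minus strand; PARP2 at chr4:1049516-1049765, plus strand).
SMR7: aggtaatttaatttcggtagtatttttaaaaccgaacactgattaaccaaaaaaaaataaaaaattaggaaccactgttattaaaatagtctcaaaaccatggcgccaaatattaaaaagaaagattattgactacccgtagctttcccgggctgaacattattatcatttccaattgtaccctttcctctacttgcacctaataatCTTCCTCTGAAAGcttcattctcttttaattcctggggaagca
PARP2: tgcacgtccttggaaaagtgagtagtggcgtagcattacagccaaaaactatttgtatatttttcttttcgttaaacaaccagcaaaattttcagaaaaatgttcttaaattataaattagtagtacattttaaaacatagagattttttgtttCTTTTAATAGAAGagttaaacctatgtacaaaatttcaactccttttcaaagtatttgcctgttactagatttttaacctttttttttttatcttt
The motif begins 43 bases before the start of SMR7 and 96 bases before that of PARP2. SMR5 and GR1 (AT3G52115) also hold it and did not pass. CYCB1;1, BRCA1 and TK1a, which fell, hold none in this window. Genes of DNA replication and mitosis moved less: of 11 tested 1 rose and 3 fell (median -0.64). These shares were 9.09% and 27.3%, beside 18.8% and 14.9% of all tested genes. Apart from CYCB1;1 the genes that fell were CYCB1;2 (AT5G06150, listed as CYC1BAT) at -0.74 (SE 0.35) and CDKB2;1 (AT1G76540) at -0.52 (SE 0.30), and RNR2A (AT3G23580), a ribonucleotide reductase subunit, rose by 0.52 (SE 0.19). Of 20 core histone genes 1 rose and 3 fell (median -0.08), and the 15% that fell lay near the 14.9% of all tested genes. GAMMA-H2AX (AT1G54690), the variant phosphorylated at DNA breaks, was among these 3 and fell by 0.43 (SE 0.27).

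**Figure D4:**
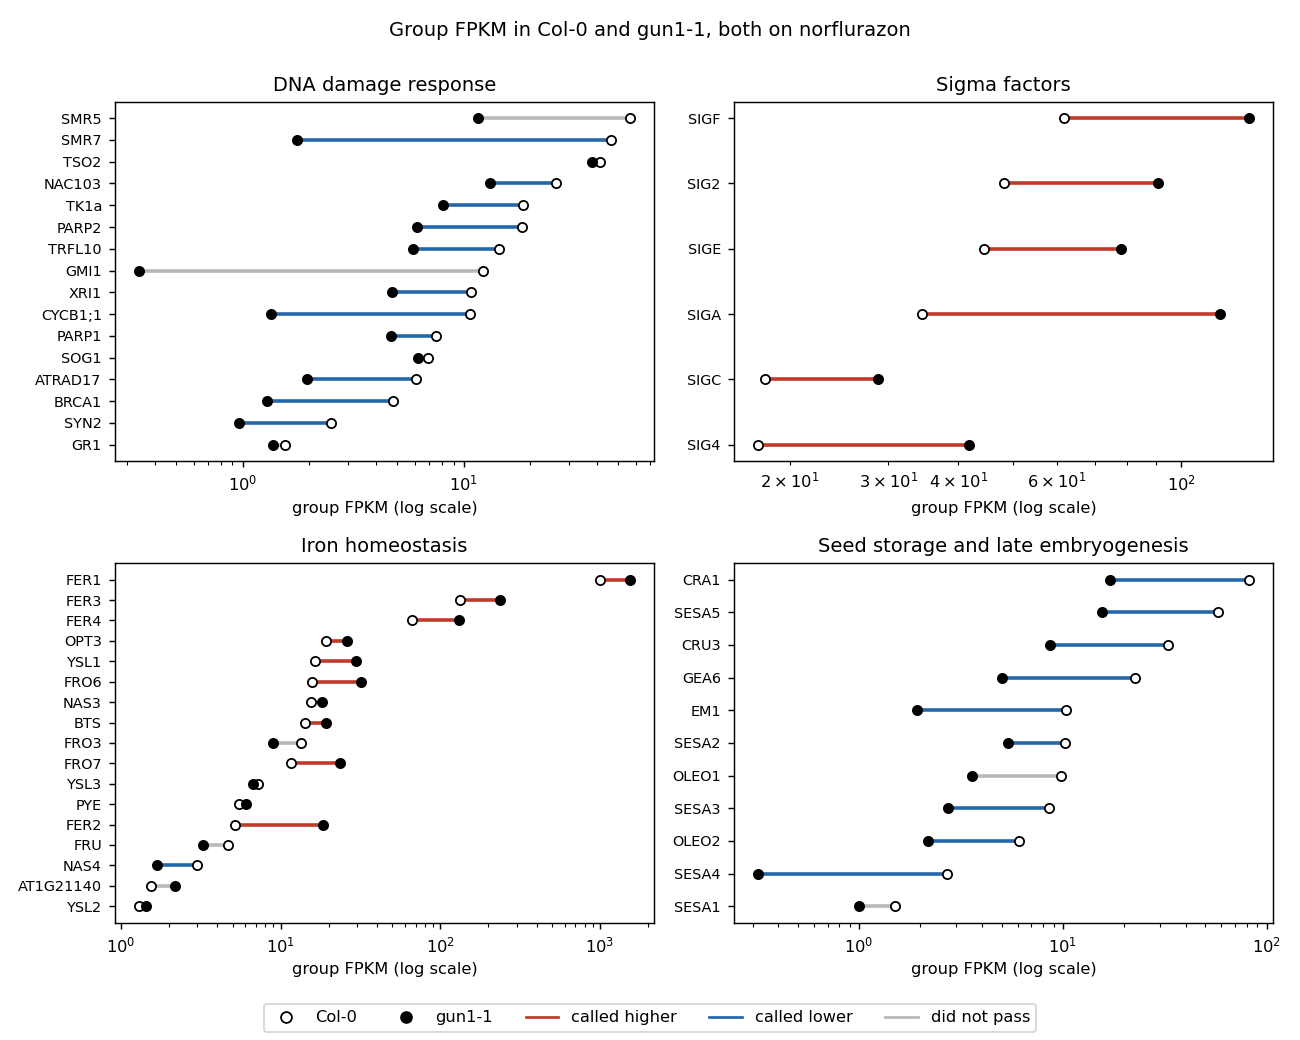
Group FPKM in Col-0 (open circles) and gun1-1 (filled circles) on log axes for tested members of 4 gene lists (1 member of the DNA damage list is not shown), with the joining line red where the gene was called higher, blue where it was called lower and grey where it did not pass. All 6 sigma factors lie to the right in gun1-1, and SMR7 moves from 46.2 to 1.76 FPKM.

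Genes known for their expression in maturing seeds were lower in gun1-1. Of 11 tested seed storage and late embryogenesis genes 9 fell and 0 rose (81.8% lower, beside 14.9% of all tested genes, median -1.90). CRA1 (AT5G44120), a cruciferin storage globulin, went from 81.8 to 17.1 FPKM, SESA5 (AT5G54740), a storage albumin, from 57.7 to 15.5 FPKM and CRU3 (AT4G28520) from 32.7 to 8.63 FPKM. GEA6 (AT2G40170), the late embryogenesis protein EM6, went from 22.5 to 5.01 FPKM. AT3G53040, annotated as a late embryogenesis abundant protein, fell further, from 40.4 to 1.24 FPKM, and fell by 5.02 (SE 0.43) in log2 terms. It gave -0.41 in gun4-1, and the difference of -4.61 (SE 0.47) passed. It fell by 3.97 in gun5-1, and that difference, -1.05 (SE 0.55), did not pass. SESA5 went the other way in that comparison: it fell by 6.06 in gun4-1, a difference of 4.16 (SE 0.85) that passed, and fell by 2.49 in gun5-1, a difference of 0.59 (SE 0.42) that did not. The G-box CACGTG, a palindrome to which bZIP and bHLH factors bind, lay in the 250-base window of 7 of the 11 genes (63.6%), beside 7.49% of all genes searched and 16.4% (21 of 128) of those called lower at least 4-fold. The windows of the 2 called members with the highest Col-0 FPKM that hold it are shown, with the G-box in capitals (TAIR10.1, RefSeq genome; SESA5 at chr5:22239188-22239437, minus strand; GEA6 at chr2:16780369-16780618, minus strand).
SESA5: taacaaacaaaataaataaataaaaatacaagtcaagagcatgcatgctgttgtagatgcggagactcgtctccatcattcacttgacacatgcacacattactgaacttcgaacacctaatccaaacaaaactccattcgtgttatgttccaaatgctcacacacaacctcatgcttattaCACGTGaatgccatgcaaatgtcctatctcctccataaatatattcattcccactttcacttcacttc
GEA6: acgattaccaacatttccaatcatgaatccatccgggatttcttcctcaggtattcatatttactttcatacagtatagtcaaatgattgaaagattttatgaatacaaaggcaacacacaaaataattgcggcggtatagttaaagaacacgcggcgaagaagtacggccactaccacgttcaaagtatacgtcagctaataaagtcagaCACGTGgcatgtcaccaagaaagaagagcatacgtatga
CRA1 and CRU3, which fell as well, hold none. Of 21 antenna genes, which rose, 5 hold it (23.8%). Genes that respond to abscisic acid and cold, hormone and stress that share much of their transcription with seed maturation, fell in 6 of 10 cases and rose in 0 (median -0.36). That was 60% lower, beside 14.9% of all tested genes. RD22 (AT5G25610), at 32.6 FPKM in Col-0, fell by 1.69 (SE 0.22) and gave 0.84 in gun4-1 and -0.63 in gun5-1, differences of -2.52 (SE 0.28) and -1.06 (SE 0.29), which both passed. RAB18 (AT5G66400), a dehydrin, fell from 28.8 to 13.6 FPKM and KIN2 (AT5G15970) from 277 to 211 FPKM. CYP707A2 (AT2G29090), which breaks down abscisic acid, rose from 4.09 to 48.0 FPKM, at 3.55 (SE 0.77).

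Cell wall and surface genes were widely lower. Of 27 tested xyloglucan endotransglucosylases, enzymes that remodel the xyloglucan of growing walls, 21 fell and 2 rose (77.8% lower, median -0.63). XTH23 (AT4G25810, listed as XTR6) went from 44.5 to 12.3 FPKM, TCH4 (AT5G57560) from 130 to 45.5 FPKM and XTH4 (AT2G06850) from 562 to 362 FPKM. XTH19 (AT4G30290) rose by 0.54 (SE 0.21). In gun5-1, 18 of the 27 fell and 1 rose (median -0.78), beside 13.2% of all genes tested there that fell. By the difference test 3 were more negative and 1 more positive in gun1-1 than in gun5-1. XTH9 (AT4G03210) fell by 1.53 (SE 0.26) and gave 0.42 in gun4-1 and 0.05 in gun5-1, and both differences passed. Expansins, which loosen walls, fell in 12 of 20 cases (60% lower, median -0.38) and rose in 1, EXPA1 (AT1G69530), from 104 to 291 FPKM. EXPA5 (AT3G29030) fell by 1.79 (SE 0.39) but gave 1.52 in gun4-1 and 0.06 in gun5-1, differences of -3.31 (SE 0.46) and -1.86 (SE 0.49), which both passed. EXPA8 (AT2G40610) fell by 0.97 (SE 0.22) and gave 1.06 in gun4-1, a difference of -2.03 (SE 0.29) that passed, and -0.13 in gun5-1, a difference of -0.84 (SE 0.30) that did not. Class III peroxidases fell in 20 of 38 cases and rose in 1 (52.6% lower, median -0.36). Arabinogalactan proteins, a list chosen after the values were seen, fell in 20 of 43 and rose in 2 (46.5% lower, median -0.54). Over all tested genes 14.9% were lower. In gun5-1, 10 of 20 expansins fell and 3 rose (median -0.56), and 20 of 38 peroxidases fell and 4 rose (median -0.46). Arabinogalactan proteins fell there in 18 of 42 cases and rose in 3 (median -0.51). Against gun5-1, 1 expansin, 0 peroxidases and 2 arabinogalactan proteins were more negative in gun1-1, and 0 were more positive.

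Genes of the epidermis were also lower. LTP1 (AT2G38540, listed as LP1), a lipid transfer protein of the epidermis, went from 1636 to 335 FPKM and fell by 2.29 (SE 0.17) in log2 terms. It gave 0.29 in gun4-1 and -1.13 in gun5-1, differences of -2.58 (SE 0.25) and -1.16 (SE 0.24), which both passed. LTP2 (AT2G38530) went from 646 to 176 FPKM. Of 6 tested wax genes 4 fell and 1 rose (median -0.46). These shares were 66.7% and 16.7%, beside 14.9% lower and 18.8% higher among all tested genes. KCS1 (AT1G01120), an elongase, went from 25.9 to 13.9 FPKM, CER2 (AT4G24510) from 47.4 to 29.7 FPKM and CER3 (AT5G57800) from 74.2 to 95.5 FPKM. All 3 epidermal markers were lower, and their summed level was 395 FPKM in Col-0 and 196 FPKM in gun1-1. PDF1 (AT2G42840), a protodermal marker, went from 188 to 54.7 FPKM. ATML1 (AT4G21750), a regulator of epidermal identity, fell by 0.46 (SE 0.23). In whole seedlings, fewer cells of a type and less RNA per cell cannot be told apart. Of the other markers, 5 of 6 root hair genes fell (summed 164 and 118 FPKM), 3 of 5 xylem genes (49.6 and 23.6 FPKM), 1 of 3 phloem genes (70.8 and 66.6 FPKM) and 7 of 9 seed storage genes (212 and 56.7 FPKM). The 3 guard cell markers and both tested markers of the shoot meristem and of myrosin cells did not pass, with sums of 23.8 and 27.4, 18.5 and 15.0, and 435 and 395 FPKM; the meristem markers WUS and CLV3 were untested, under 1 FPKM in both groups. Of the 3 endodermal markers SCR (AT3G54220) rose by 1.11 (SE 0.18), from 17.8 to 38.4 FPKM. CASP1, at 51.7 and 46.2 FPKM, and CASP2, at 15.8 and 12.6 FPKM, did not pass. The summed level of the 3 was 85.4 and 97.1 FPKM. The tested seed storage markers are also members of the seed list above, and the root hair markers EXPA7 and EXPA18 are expansins. The seed storage counts thus repeat that result, and the root hair counts repeat part of the expansin result. The part of the cell type markers in the wall, surface and seed results was not tested.

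Defence and detoxification genes changed in both directions. PYK10 (AT3G09260), the beta-glucosidase of ER bodies, went from 3501 to 1865 FPKM and its binding lectin PBP1 (AT3G16420) from 1879 to 896 FPKM. Mannose-binding lectins, a list chosen after the values were seen, fell in 9 of 15 cases and rose in 0 (60% lower, median -0.79). Among them JAL34 (AT3G16460) went from 373 to 215 FPKM. Indolic glucosinolate genes fell in 4 of 9 cases (44.4% lower, median -0.22), with CYP83B1 (AT4G31500) at 19.7 and 12.2 FPKM. Both shares stand beside 14.9% of all tested genes called lower. The single tested gene of aliphatic glucosinolates and the 2 of salicylate and jasmonate defence did not pass, and of 2 singlet oxygen genes ZAT12 (AT5G59820, listed as RHL41) rose by 0.50 (SE 0.21). Of 38 glutathione S-transferases 10 rose and 9 fell (median -0.23). These shares were 26.3% and 23.7%, beside 18.8% and 14.9% of all tested genes. GSTU5 (AT2G29450) went from 85.9 to 250 FPKM, and its changes of -0.09 in gun4-1 and 0.19 in gun5-1 both passed the difference test. GSTU20 (AT1G78370) fell from 17.3 to 6.52 FPKM, against 1.89 and 0.41, differences of -3.30 (SE 0.37) and -1.82 (SE 0.39), which both passed. Of 113 cytochromes P450, 30 rose and 20 fell (26.5% and 17.7%, near the 18.8% and 14.9% of all tested genes; median 0.03). NIT4 (AT5G22300), a nitrilase that detoxifies beta-cyanoalanine, went from 2.40 to 56.5 FPKM, at 4.56 (SE 0.51), against -2.03 in gun4-1, a difference of 6.59 (SE 1.07) that passed, and 2.11 in gun5-1, a difference of 2.45 (SE 0.75) that did not.

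Hormone response families differed among themselves. Of 52 tested SAUR genes, early auxin-induced genes, 9 rose and 3 fell (median 0.07). These shares were 17.3% higher and 5.77% lower, beside 18.8% and 14.9% of all tested genes. AT4G34760 went from 26.2 to 97.9 FPKM and AT2G37030 from 21.7 to 5.14 FPKM. Of 23 Aux/IAA repressors of auxin signalling 1 rose and 6 fell (26.1% lower, beside 14.9% of all tested genes; median -0.28), IAA8 (AT2G22670) from 71.9 to 46.5 FPKM. The cytokinin response regulators ARR4 (AT1G10470) and RR3 (AT2G41310) rose by 0.71 (SE 0.22) and 0.91 (SE 0.20), 2 of 7 tested (28.6%, beside 18.8% of all tested genes, median 0.20). Of 6 genes of brassinosteroid and gibberellin metabolism 3 rose and 0 fell (50% higher, beside 18.8% of all tested genes; median 0.37), with BR6OX2 (AT3G30180) from 21.7 to 38.4 FPKM. Cytosolic ribosomal proteins rose in 32 of 163 cases and fell in 13 (median 0.07), and pentatricopeptide repeat proteins rose in 46 of 221 and fell in 23 (median -0.01); these shares of higher calls, 19.6% and 20.8%, lay near the 18.8% of all tested genes. Genes for nonaspanins and p24 cargo receptors of the secretory pathway, chosen after the values were seen, fell in 12 of 18 cases and rose in 0 (median -0.36, with the lowest at -0.97). That was 66.7% lower, beside 14.9% of all tested genes. Of 11 tested DUF295 genes, also chosen so, 4 fell and 1 rose; the span of AT1G30170 holds a second member of that family, AT1G30160.

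All 21 antenna genes were more positive in gun1-1 than in gun4-1 (median 1.19 there), and against gun5-1 2 were more positive and 1 more negative (median 2.75). Plastid-encoded genes separated gun1-1 from both mutants. Their median change was 1.64 in gun4-1 and 1.84 in gun5-1, and of the 53 genes that could be compared with each mutant 40 and 39 were more negative in gun1-1. rpl16 gave 0.97 and 1.41 in these mutants, differences of -2.64 (SE 0.24) and -3.08 (SE 0.24), which both passed. Sigma factors gave a median of 0.19 in gun4-1, where 1 of 6 was called higher (8.18% of all genes tested there), and of 1.07 in gun5-1, where all 6 were (16.3%). The difference from gun4-1 passed for 4 of the 6 and that from gun5-1 for 0. Photorespiration genes had a median of 0.33 in gun4-1 and 1.45 in gun5-1, and 12 of 19 were more positive in gun1-1 than in gun4-1 by the difference test. Against gun5-1 0 were more positive and 1 was more negative, LrgB (AT1G32080), at 0.77 (SE 0.17) in gun1-1 and 1.76 in gun5-1, a difference of -0.99 (SE 0.24). Of 37 nuclear genes of plastid ribosomal proteins, all rose in gun1-1 and gun5-1 and 33 in gun4-1, with medians of 0.67, 1.09 and 0.43, and the difference passed for 1 of 37 against gun4-1 and 0 against gun5-1. Among single genes, FIB differed, at -0.43 in gun4-1 and 0.23 in gun5-1, by 3.12 (SE 0.32) and 2.46 (SE 0.31). NDA1 gave -0.28 and 0.57, and the difference passed against gun4-1 alone. FBP rose by 2.62 (SE 0.17) in gun1-1, against -0.34 and 1.20, differences of 2.96 (SE 0.24) and 1.42 (SE 0.24), which both passed. A difference that did not pass does not show that the mutants act alike.

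**Figure D5:**
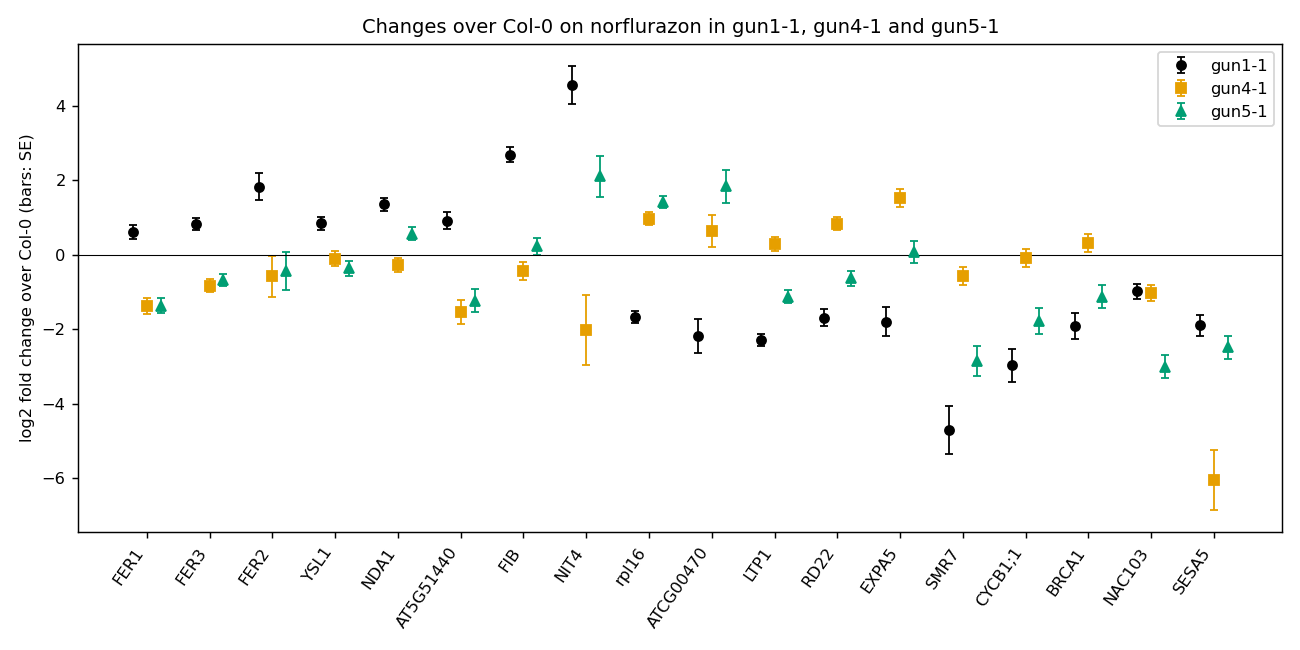
Log2 fold change over Col-0 for 18 genes in gun1-1 (black circles), gun4-1 (orange squares) and gun5-1 (green triangles), with bars of 1 derived SE. The mutants share the Col-0 libraries; FER1 lies at 0.62 in gun1-1 and near -1.4 in the others, and rpl16 at -1.67 against 0.97 and 1.41.

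Transcripts of a single gene seldom went opposite ways. Of 25672 tested transcripts 3887 were called higher (15.1%) and 2894 lower (11.3%). Among 4809 genes with at least 2 tested transcripts, 9 had transcripts called in both directions. EMB1030 (AT5G22800), an alanyl-tRNA synthetase named for its embryo phenotype, had a main transcript that went from 74.6 to 33.0 FPKM and another that went from 4.89 to 23.0 FPKM, at -1.18 (SE 0.20) and 2.24 (SE 0.69). ABCB4 (AT2G47000), an auxin transporter, had transcripts at -1.56 (SE 0.33) and 1.84 (SE 0.86). How the authors' assembly divided reads among transcripts was not tested.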

How the data were processed

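Poly(A) RNA of Arabidopsis seedlings was sequenced, 3 libraries per genotype. Per the submitters' processing notes, Trimmomatic, TopHat, Cufflinks and Cuffdiff were used, with no version, build or annotation given in the sources read here. The authors deposited, per pair of groups, the FPKM of each group and transcript, the log2 fold change, a test statistic (here called a score) and p-values with q-values. Counts and values of single libraries were not used here, so depth is unknown and no interval or SD is given; p-values measure the spread between libraries that the design text calls biological triplicates, as the authors' tool modelled it.

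For each gene code the transcript with the highest mean of both groups was kept. A gene was called at the authors' q-value under 0.05. The SE of a log2 fold change was the larger of the change divided by the deposited score and the change divided by the normal quantile of the p-value, the latter above the smallest p listed, 5e-05. The difference test between mutants divides the difference of changes by the combined SE, with a normal p; shared Col-0 libraries enter both SEs. Whether the derived SEs match the spread between libraries was not tested. Names and promoter windows came from RefSeq TAIR10.1, matched by gene code (37663 codes, 10715 with a symbol); 50 of 58 plastid genes were named by identical spans.

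Genes named by rule were GUN1, the 12 called genes with at least 5 FPKM in a group and the largest finite rise and the 12 with the largest fall, the 8 with the largest rise and the 8 with the largest fall in FPKM, in each list the 2 called members with the largest change per direction and the most abundant member, genes at 0 in a group with at least 20 FPKM in the other, and 6 genes with transcripts called in opposite directions. Other genes, and the motifs and windows shown, were chosen after their values were seen. The members and all 47 lists were chosen with earlier results of these data known; 7 lists were added after the values were seen and the list of cytosolic ribosomal proteins was corrected then. Alternatives were other thresholds, FPKM filters, pseudocounts, choices of transcript, recentring and other SEs. Python 3.11.15, numpy 2.4.6, pandas 2.3.3, scipy 1.17.1, biopython 1.88 and matplotlib 3.10.9 were used. The result of 1 gene of the DNA damage list is not reported here; it remains in that list's counts.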

Additional observations from a re-analysis of the deposited data

How the results depend on the processing

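With p taken from the derived SE in place of the authors' p, genes higher in gun1-1 numbered 1832, against 3531, and genes lower in gun1-1 961, against 2799; members of the gene lists called higher went from 350 to 226 and members of the gene lists called lower from 284 to 131. With recentring on the median of genes at 5 FPKM or more (a shift of 0.03) as well, these 4 counts were 1734, 1068, 218 and 146, and 52 of 200 named genes no longer passed, the SE being wider by construction. A pseudocount of 1 left 438 genes lower at least 2-fold, against 659. A q-value under 0.01 left 3 genes with opposite transcripts, against 9, and 22 runs of neighbouring genes, against 47. It also moved 17 of 94 counts of the gene lists by over 1.5 times, and a pseudocount of 1 moved 27 of 200 named genes. With SEs matched to the authors' p, chosen after the data were seen, genes whose change is more positive in gun1-1 than in gun4-1 numbered 2384 and genes whose change is more negative in gun1-1 than in gun4-1 1876; genes whose change is more positive in gun1-1 than in gun5-1 numbered 1035 and genes whose change is more negative in gun1-1 than in gun5-1 1014. FPKM summed over transcripts reversed AT1G47570 to 0.24 and AT5G27950 to 0.21; the cause was not tested. Other choices of transcript and the FPKM filters kept the counts over all genes within 1.5 times. No paired analysis was possible because the deposited tables hold 1 value per group, which also allows no library to be left out. Depth is unknown, and few genes of low FPKM could pass.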

Other observations

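The share of genes called higher rose with the level, from 2.90% of tested genes at a mean of 1 FPKM or less to 45.9% above 500 FPKM, while the share called lower lay between 8.45% and 20%. Across the 5 nuclear chromosomes the shares were 18.2% to 19.3% higher and 14.2% to 15.2% lower. Runs of at least 4 neighbouring tested genes called in the same direction numbered 27 higher and 17 lower on nuclear chromosomes, the longest of 6 genes. A run of higher genes on chromosome 5, from 8157151 to 8191459 in the deposited coordinates, held SIGE and the squalene epoxidase genes SQP1, SQP2 and SQE6, with changes from 0.48 to 3.85. A run of lower genes on chromosome 5, from 23300321 to 23308680, held XTH12, XTH13, XTH25 and TCH4, with changes from -2.44 to -0.61. Of 769 tested noncoding genes 54 were higher and 34 lower, smaller shares than the 18.8% and 14.9% of all tested genes.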
